A study of Homo sapiens with 8 samples.

Results

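The comparison described here is that of ethanol, the solvent used to carry estradiol, with no treatment in SKBR3, an established human breast cancer cell line that carries an amplified HER2 (ERBB2) gene and grows as luminal-type epithelium. It rests on 2 of the 8 Affymetrix expression arrays of the series, 1 of cells given 0.1% ethanol and 1 of untreated cells, and on the 19775 genes that the platform annotation names singly. The 2 arrays were identified by the treatment in their titles. All cultures first spent 4 h in 10% charcoal-stripped serum, which is depleted of steroids, and RNA was taken after 3 h of treatment. The other 6 arrays came from cells given 1e-06 M estradiol, 1e-06 M BSA (bovine serum albumin), 1e-06 M E2-BSA (a conjugate of estradiol and BSA), 1e-05 M of the antagonist G15, or 1e-06 M E2-BSA together with 1e-05 M ICI or 1e-05 M G15. These 6 serve here as a measure of how far single arrays of this cell line lay from the untreated array.

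Each condition has 1 array, so no difference below has a replicate error, a test or a p-value, and the treatment cannot be told apart from anything else that set that 1 culture, RNA or array apart. The number of arrays limits the precision. Deposited values are centred for each probe set (a group of probes for 1 transcript), so the level of a gene is removed and only differences between arrays can be read. They were taken as log2 values, although neither the labels nor the table headers state the base. A difference is the value on the ethanol array minus the value on the untreated array, averaged over the probe sets of a gene, and 2-fold means a difference of at least 1 log2 unit in size.

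NF-kB is a family of transcription factors held in the cytoplasm by inhibitor proteins. When receptors of the tumour necrosis factor, interleukin-1 or toll-like families signal, kinases mark the inhibitors for destruction, the factors enter the nucleus, and genes for chemokines, adhesion molecules and the pathway's own inhibitors are transcribed within hours. Immediate early genes such as FOS, JUN and EGR1 are switched on by growth factor and stress kinases without new protein synthesis, and ATF4, a factor translated when stress kinases slow protein synthesis, drives genes for amino acid supply and recovery. Epithelial cells are known to release chemokines on such signals.

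On the ethanol array 172 genes were at least 2-fold higher than on the untreated array and 3 were at least 2-fold lower, of 19775. These are 0.87% and 0.0152% of all genes. The higher genes were led by inflammatory signals (CCL20, CXCL8, CXCL1, SELE, TNF and TNFAIP3, with differences from 5.17 for TNFAIP3, 36.1-fold, to 7.73 for CCL20, 213-fold), and further down the order they included stress, growth arrest, feedback and secreted protein genes. On the lower side differences were small, and among the 53 gene lists the lowest median was that of G2/M and mitosis at -0.49, with 42 of 44 genes below 0. Across all genes the median was -0.03, with 42.1% of genes above 0 and 56% below. Of the 172 higher genes, 37 were at least 4-fold higher, 12 at least 8-fold and 7 at least 16-fold. Forced to the same distribution of values on all 8 arrays (quantile normalization), the count at 2-fold was 28 higher and 16 lower. The share of higher genes among them was then 63.6% in place of 98.3%. Because the values were already centred for each probe set, this step evens out the differences themselves between arrays. The change in these counts therefore follows in part by construction, and so do changes in the list medians given below after this step.

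The promoters of 4 of the leading genes are shown because each holds the NF-kB consensus in its first 130 bases before the transcription start, at 50 to 94 bases from it. They are from RefSeq on GRCh38.p14, and capitals mark the matches, which were read on both strands.
CCL20, chr2:227813712-227813841, plus strand: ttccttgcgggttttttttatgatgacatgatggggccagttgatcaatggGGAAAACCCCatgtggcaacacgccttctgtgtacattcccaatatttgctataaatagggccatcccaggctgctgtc
SELE, chr1:169734080-169734209, minus strand: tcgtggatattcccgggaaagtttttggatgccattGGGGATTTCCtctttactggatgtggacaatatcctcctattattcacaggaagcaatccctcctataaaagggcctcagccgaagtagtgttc
TNFAIP3, chr6:137867129-137867258, plus strand: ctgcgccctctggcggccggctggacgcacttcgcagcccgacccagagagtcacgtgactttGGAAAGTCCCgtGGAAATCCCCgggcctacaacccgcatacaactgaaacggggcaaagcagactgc
IRF1, chr5:132490774-132490903, minus strand: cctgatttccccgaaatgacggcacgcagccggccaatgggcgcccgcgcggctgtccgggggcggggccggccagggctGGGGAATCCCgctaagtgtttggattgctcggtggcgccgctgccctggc
TNFAIP3 had 2 matches and the other 3 genes 1 each. Of the 172 higher genes, 95 had a single start in the table, and in 23 of these (24.2%) the window from 250 bases before to 50 after the start held the NF-kB consensus, against 719 of 11469 genes (6.27%) overall. Among the 20 most strongly higher genes with such a promoter it was found in 8. A looser pattern, GGG and CC with 5 bases of any kind between them, which every consensus match also meets, was found in 80% of the higher genes and in 67.8% of all, and is common by its few fixed letters. A TATA box, searched as TATAAA, was in 27 of the 95 (28.4%) against 9.38%. The consensus and the TATAAA pattern were added after values had been seen. A match is a stretch of letters and no measured site of binding.

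The values of the ethanol array stood outside the range of the series more often than those of any other array. A total of 3845 genes (19.4%) were highest of the 8 there and 5193 (26.3%) lowest, where the other 7 arrays had between 1068 and 3263 highest and between 1247 and 2682 lowest. With a gap of at least 1 log2 unit to the next array, 126 genes (0.637%) stood above all others on the ethanol array and 0 stood below. No other array had a gene above all others by this gap, and 1 array, that of E2-BSA with ICI, had 1 gene below. Set against the untreated array in the same way, the 6 other arrays had 0 to 6 genes at 2-fold higher and 0 to 6 lower. The SD of the difference over genes was 0.304 for ethanol and 0.132 to 0.186 for the other 6.

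**Figure D1:**
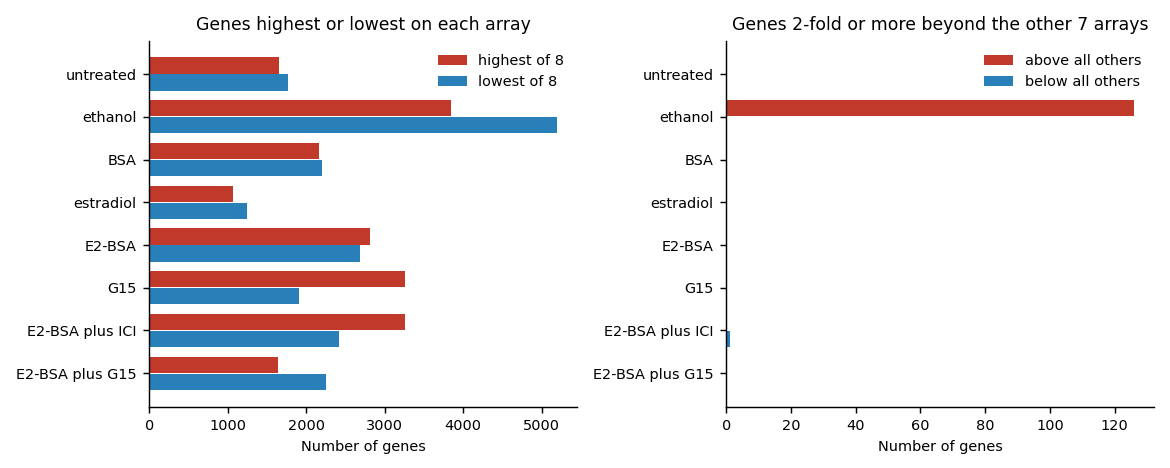
Number of genes (horizontal axis) that were highest or lowest of the 8 arrays on each array (left) and that lay at least 1 log2 unit above or below all other 7 arrays (right). The ethanol array has 3845 highest and 5193 lowest genes and is the only array with genes above all others by this gap, 126 of them.

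Of the 172 higher genes, 171 had their highest value of the 8 on the ethanol array, against 19.4% of all genes. This follows largely from their selection by a high value on that array. The exception was LOC114224, which was higher on the BSA array at 0.68 than on the ethanol array at 0.57. The median of the 172 was 1.41 on the ethanol array by selection, and it was between -0.04 and 0.15 on the other 6, also as differences from untreated. On the estradiol array, whose vehicle is ethanol per the labels, 0 of the 172 were at 2-fold, the median was 0.08 and the highest was CCL2, a monocyte chemokine, at 0.83. At most 1 of the 172 was at 2-fold on any of the other 6 arrays, which was LOC114224 on the BSA array (1.38) and EGR1 on the E2-BSA with ICI array (1.01). The members nearest the threshold were INTS6L, HIVEP2 and GRAMD2B inside, at 1.004, 1.006 and 1.006, and LTV1, ARL14 and CCDC102A outside, at 0.997, 0.990 and 0.986.

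Signs of RNA quality and of other cells were read on the same arrays. The control probe sets for the 3' end minus those for the 5' end of ACTB gave 0.28 on the ethanol array, the highest of the 8, against -0.37 to 0.13 on the other 7, whereas those of GAPDH gave 0.02 (-0.05 to 0.16 on the others). The part of this in the results was not tested. The share to set beside the marker counts above 0 that follow is that over all genes, 42.1%. Of 13 measured markers of luminal HER2-positive breast cells, 0 differed by 2-fold, 4 were above 0 and the median was -0.05, from TFAP2B at -0.55 to GATA3 at 0.19. The mean of these markers was -0.10 on the ethanol array and -0.03 to 0.05 on the other 7. Markers of T, B and NK cells were measured for 7 genes, with 0 above 0 and a median of -0.12, and those of myeloid cells for 7, with 5 above 0, a median of 0.03 and a range from AIF1 at -0.29 to ITGAM at 0.35. Of 6 fibroblast markers 1 was above 0, and of 4 endothelial markers 2 were, from PECAM1 at -0.27 to CDH5 at 0.16. No marker of these 4 other cell classes reached 2-fold. Longer lists gave 0 of 15 T, B and NK cell genes above 0 (median -0.20, lowest CD3G at -0.38), 9 of 16 myeloid genes (median 0.02, lowest CSF3R at -0.32) and 5 of 18 fibroblast and endothelial genes (median -0.13, highest CLDN5 at 0.32). With levels removed, it cannot be read whether any of them is expressed at all.

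Secreted signals came first in size. The shares to set beside each list count below are those over all genes, 0.87% at 2-fold higher, 42.1% above 0 and 56% below. Of 22 chemokines measured, 10 were at 2-fold higher, 18 were above 0 and the median was 0.42, where the 6 other arrays gave medians from -0.05 to 0.11. The list median was 0.19 with the median over probe sets of a gene and 0.13 without probe sets that can match more than 1 transcript, and CXCL2 (1.65), 1 of the 10, fell just below 0 under both settings. Besides CCL20 and the neutrophil attractants, the 10 included the interferon-linked CXCL10 (2.86) and CXCL11 (1.82), which attract T cells. The others were the membrane-bound CX3CL1 (2.66), CCL2 (3.42) and CCL5 (1.29). All 10 stood above every other array by at least 1 log2 unit, as did 126 of the 172 higher genes and 0.637% of all genes. CXCL10 and CXCL11 lie next to each other among the measured genes of chromosome 4. The lowest member was CCL7, at -0.44. Other secreted signals had fewer members at 2-fold, where 0.87% of all genes were: of 26 interleukins and colony-stimulating factors 1 was at 2-fold, IL20 at 1.13, and the median was -0.01, and of 15 ligands of the TNF family 2 were, TNF itself at 5.20 and TNFSF9, a T cell costimulator, at 1.65, with LTA at -0.60 the lowest.

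Adhesion and costimulatory molecules had 3 of 17 at 2-fold. SELE, E-selectin, is a leukocyte-capturing adhesion molecule known chiefly from activated endothelium. Its values were 0.00 on the untreated, 5.87 on the ethanol, 0.18 on the BSA, 0.00 on the estradiol, -0.01 on the E2-BSA, 0.00 on the G15, -0.49 on the E2-BSA with ICI and -0.29 on the E2-BSA with G15 array. The ethanol array alone was high, 58.6-fold over untreated and the other 7 lay between -0.49 and 0.18. None of the 4 endothelial markers given above was at 2-fold. CD83, a costimulatory surface protein, was 2.31 higher, and ICAM1, the ligand of leukocyte integrins, was 1.94 higher in the mean of its probe sets, which ranged from 0.11 to 3.57.

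Receptors and adaptors upstream of NF-kB had 3 of 28 at 2-fold and a median of 0.04. These were NOD2, a cytosolic sensor of bacterial cell wall fragments, RIPK2, the kinase through which NOD2 signals (1.93), and TICAM1, the adaptor of toll-like receptor 3 (1.58). NOD2 was at 0.00 on the untreated array, 2.62 on the ethanol array and between -0.29 and 0.25 on the other 7. Both NOD2 and its kinase were thus among the higher genes. The ethanol array was the highest of the 8 in both, as for 19.4% of all genes, which follows largely from their selection at 2-fold.

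All 12 NF-kB subunits and activating kinases were above 0, against 42.1% of all genes. Their median was 0.62, against 0.03 to 0.09 on the other 6 arrays, and 0.34 after quantile normalization. At 2-fold were RELB (1.70), REL (1.55) and NFKB1 (1.11), which are subunits, and MAP3K8 (1.68), a kinase activated when the NF-kB1 precursor is processed. RELB was at -0.10 on the untreated array, 1.60 on the ethanol array and between -0.18 and 0.28 on the other 7. The lowest was IKBKG, the regulatory subunit of the kinase complex, at 0.03. The subunits that pair in the classical dimer differed in size, RELA being at 0.38 (chosen after its value was seen) and NFKB1 at 1.11.

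Of 16 genes listed as feedback inhibitors of the same pathway, 4 were at 2-fold and 15 above 0, against 0.87% and 42.1% of all genes. Their median was 0.49 (other 6 arrays -0.03 to 0.15). This median was 0.77 with the probe set of largest SD for each gene and 0.32 without probe sets that can match more than 1 transcript. TNFAIP3, which encodes the ubiquitin-editing enzyme A20, was at 5.08 on the ethanol array and -0.09 on the untreated array, and at 0.10 with estradiol, 0.29 with E2-BSA, -0.15 with BSA, -0.13 with G15, 0.13 with E2-BSA and ICI and -0.09 with E2-BSA and G15. Only the ethanol array was high, at 36.1-fold over untreated. NFKBIZ (2.40), a nuclear member of the inhibitor family, NFKBIE (2.09) and NFKBIA (1.31), both cytoplasmic inhibitors, were the other 3 at 2-fold. TNFAIP8, at -0.04, was the only listed gene below 0. WAKMAR2, a long non-coding RNA gene that overlaps TNFAIP3, was also at 2-fold (1.18), and probes in overlapping genes cannot always be told apart.

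Interferon-linked genes showed a smaller difference. IRF1, a transcription factor that NF-kB and interferon-gamma both switch on, was at 0.00 on the untreated, 3.69 on the ethanol, -0.02 on the BSA, 0.01 on the estradiol, 0.31 on the E2-BSA, -0.04 on the G15, 0.09 on the E2-BSA with ICI and -0.25 on the E2-BSA with G15 array. It was 12.9-fold higher on the ethanol array and the other 7 values lay between -0.25 and 0.31. Of 23 interferon regulatory, STAT and SOCS genes 2 were at 2-fold, the other being STAT5A (1.11), and the lowest was CISH, a feedback inhibitor of cytokine receptors, at -0.69. Interferon-stimulated genes had 27 of 32 above 0, against 42.1% of all genes. At 2-fold were 2 of them, the GTPase GBP2 (1.70) and the RNA sensor IFIH1 (1.21). The list median was 0.22, with EPSTI1 the lowest at -0.33. Against the BSA array in place of the untreated array this median was 0.00, so the shift of the list depended on which single array was the comparator. Antigen presentation genes had 0 of 18 at 2-fold and a median of 0.04, from CD74 at -0.24 to TAP1 at 0.89.

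**Figure D2:**
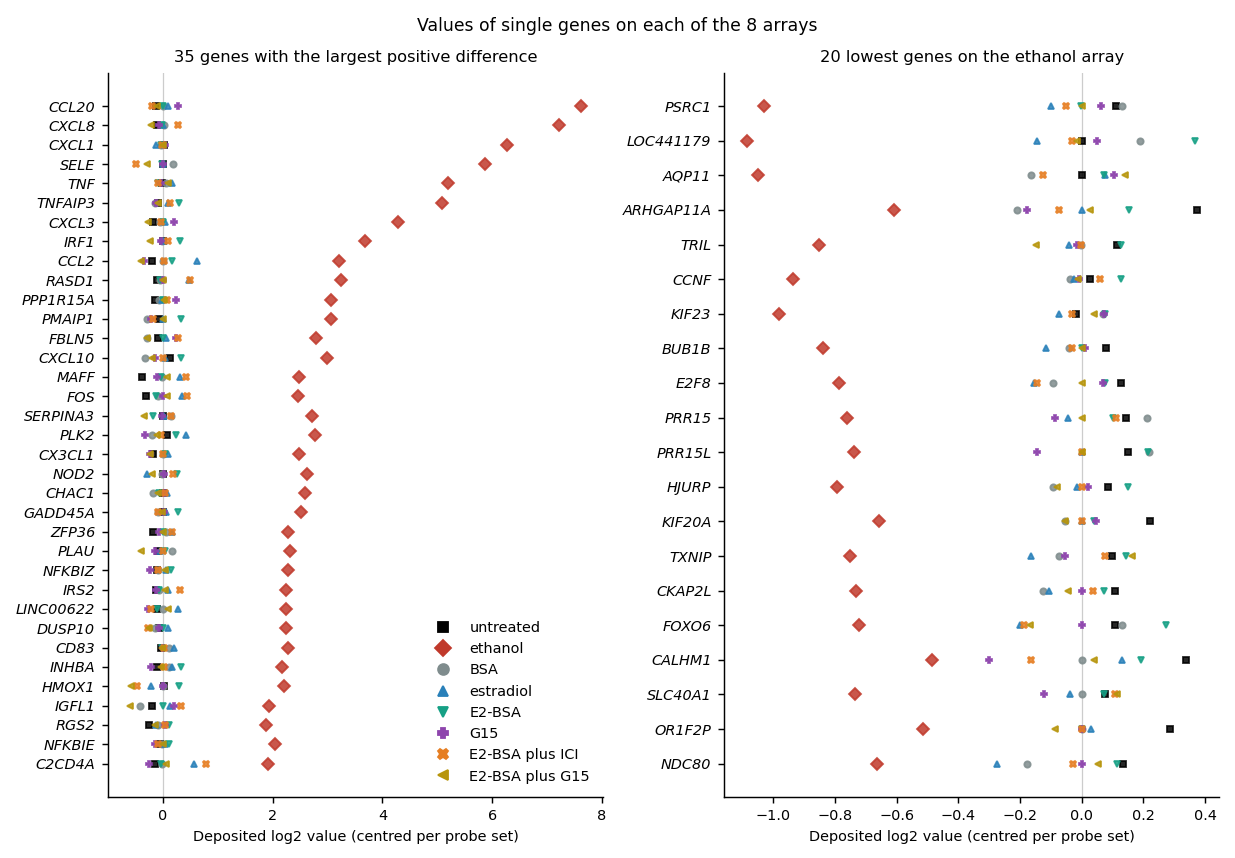
Deposited log2 values (horizontal axis, centred per probe set) of single genes on the 8 arrays, with 1 symbol per array and 1 row per gene. Among the genes with the largest positive differences the ethanol symbol lies far to the right of the other 7, which group near 0. Among the lowest genes the ethanol symbol lies to the left of the other 7, between -1.09 for LOC441179 and -0.49 for CALHM1. The first set was picked by its difference from untreated. The lowest genes were limited to those lowest of the 8 on the ethanol array, so their position follows from selection.

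Immediate early transcription factors made up the next group. Over all genes 0.87% were at 2-fold higher. In the AP-1 and CREB family 6 of 21 genes were at 2-fold, MAFF (2.86), FOS (2.78), JUN (2.02), ATF3 (1.97), FOSB (1.95) and JUNB (1.35). All 6 stood above every other array by at least 1 log2 unit, as did 126 of the 172 higher genes and 0.637% of all genes. FOS, a subunit of AP-1, was at -0.32 on the untreated, 2.47 on the ethanol, -0.10 on the BSA, 0.35 on the estradiol, -0.13 on the E2-BSA, 0.00 on the G15, 0.44 on the E2-BSA with ICI and 0.08 on the E2-BSA with G15 array. The untreated array was the lowest of the 8, which adds to the difference from it, and the ethanol array was 2.03 above the next highest. JDP2, a repressor of AP-1, was the lowest of the list at -0.30.

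The list of EGR, NR4A, IER and other early genes had 9 of 27 at 2-fold and 20 above 0. Over all genes the shares were 0.87% and 42.1%. The list median was 0.54 (other 6 arrays -0.01 to 0.15). For ethanol it was 0.31 after quantile normalization and 0.85 with the probe set of largest SD. The 9 were RGS2 (2.13), which shortens G protein signals, the nuclear receptors NR4A2 (2.03) and NR4A3 (1.08), the small GTPase gene RND3 (1.86), EGR1 (1.84), EGR3 (1.12), IER5 (1.65), IER3 (1.37) and CCN2 (1.60), a matricellular protein. EGR1, a zinc finger factor, was at 1.38 on the ethanol array and -0.46 on the untreated array, and at 0.33 with estradiol, -0.23 with E2-BSA, -0.35 with BSA, -0.05 with G15, 0.56 with E2-BSA and ICI and 0.08 with E2-BSA and G15. The ethanol array was 0.82 above the next, and the other 7 spread from -0.46 to 0.56 with the untreated array lowest. ID1, an inhibitor of differentiation factors, was lowest in the list at -0.35. Kruppel-like factors had 0 of 16 at 2-fold, from KLF15 at -0.33 to KLF6 at 0.94.

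The promoter of EGR1 is shown for its 2 serum response factor boxes, in capitals, at 105 and 83 bases before the start, again from RefSeq on GRCh38.p14.
EGR1, chr5:138465349-138465478, plus strand: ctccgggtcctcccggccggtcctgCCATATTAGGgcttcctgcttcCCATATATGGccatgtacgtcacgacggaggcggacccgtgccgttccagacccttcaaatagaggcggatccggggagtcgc
Boxes of this kind were found in 5 of the 95 higher promoters (5.26%) and in 1.13% of all 11469. The AP-1 pattern TGANTCA was in 5.26% of the higher promoters and 5.8% of all, the CRE pattern TGACGTCA in 2.11% and 2.88%, and the C/EBP-ATF pattern TGATGNAAN in 1.05% and 2.64%.

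Some genes that end early signals were at 2-fold as well, where 0.87% of all genes were. Among inhibitors of MAP kinase signalling 4 of 18 were at 2-fold, the phosphatases DUSP10 (2.32) and DUSP5 (1.79), the EGF receptor inhibitor ERRFI1 (1.49) and SPRY4 (1.45), and the median was 0.32 (other 6 arrays -0.09 to 0.19), or 0.49 with the probe set of largest SD for each gene. DUSP10 acts on the stress kinases p38 and JNK, and its ethanol value of 2.25 lay above a range of -0.27 to 0.09 on the other 7 arrays. Of 17 mRNA decay and translational repressor genes 2 were at 2-fold. These were ZFP36 (2.46), whose protein brings AU-rich cytokine transcripts to decay, and ZC3H12C (1.60), a member of the regnase family whose probe sets ran from -0.10 to 3.30. TOB1 was the lowest, at -0.52.

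Stress and arrest genes were higher in part of their lists. In the ATF4 integrated stress response 6 of 32 genes were at 2-fold, against 0.87% of all genes. PPP1R15A, which directs a phosphatase to restart translation, was at -0.15 on the untreated array, 3.06 on the ethanol array and -0.15 to 0.23 on the 7 others. The others were CHAC1 (2.59), a glutathione-degrading enzyme, SESN2 (1.89), DDIT3 (1.57), CEBPB (1.18) and SLC7A11 (1.06), the cystine transporter. The list as a whole had a median of 0.10, with 23 of 32 above 0, and VLDLR lowest at -0.34. TRIB3, a usual target of ATF4 named here after its value was seen, was at -0.05. The aminoacyl-tRNA synthetases, which ATF4 also drives, had 0 of 17 at 2-fold with YARS1 highest at 0.73 and a median of 0.05. Chaperones of the endoplasmic reticulum had 0 of 24 (median -0.04, from SDF2L1 at -0.24 to ERN1 at 0.59), and heat shock genes 0 of 18 (median -0.07, HSPB8 highest at 0.80).

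Among p53 and GADD45 arrest genes 7 of 24 were at 2-fold, against 0.87% of all genes. PLK2 (2.70), a kinase of the centriole cycle, GADD45A (2.52), GADD45B (1.37), SESN2, the cell cycle inhibitor CDKN1A (1.32), the nuclease AEN (1.08) and the death receptor TNFRSF10B (1.04) made up the 7, while MDM2, a standard p53 target named here after its value was seen, was at 0.16. CCNG2 was the lowest at -0.27 and the median was 0.09. GADD45A was at 0.00 on the untreated array and 2.52 on the ethanol array, with -0.10 to 0.28 on the other 7. CDKN1A varied more elsewhere, from -0.71 to 0.25, with 1.26 on the ethanol array. Of 25 apoptosis regulators 2 were at 2-fold, PMAIP1 (3.14), the BH3-only protein NOXA, and TNFRSF10B, and the lowest was BMF, another BH3-only gene, at -0.61. PMAIP1 stood at 3.06 on the ethanol array against -0.29 to 0.33 on the rest.

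Redox genes had 3 of 29 at 2-fold, HMOX1 (2.18), which breaks down haem, SOD2 (1.48), a mitochondrial superoxide dismutase that NF-kB also drives, and SLC7A11, and the median was 0.04 with PRDX3 lowest at -0.17. HMOX1 was at 0.01 on the untreated and 2.20 on the ethanol array, and between -0.58 and 0.28 on the other 7. SOD2 was at -0.26 and 1.22, and its other 7 values reached from -0.57 to 0.30. Metallothioneins and zinc transporters had 0 of 15 at 2-fold and a median of 0.03, from SLC39A10 at -0.39 to SLC30A1 at 0.45.

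The enzymes that oxidize ethanol and its product acetaldehyde did not reach 2-fold in any of 19 cases. The median was -0.05, 4 were above 0, and the extremes were ADH1C at 0.22 and ADH7 at -0.22. No member was highest of the 8 arrays on the ethanol array, against 19.4% of all genes, and 5 were lowest there, against 26.3% of all genes. ADH5, ALDH2 and CYP2E1, named after their values were seen, were at -0.17, -0.05 and 0.05. Since levels are removed, it is not known which of these genes the cells express. Sterol and fatty acid synthesis had 0 of 22 at 2-fold (HMGCS1 0.95, SREBF1 -0.29), and hypoxia and glycolysis 1 of 26, PFKFB3 at 1.38, with a median of -0.01. Polyamine and nucleotide genes had 0 of 21, with UPP1 highest at 0.98 and SRM lowest at -0.24.

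Growth factor, protease and matrix genes contributed single members. SERPINA3 (2.71), an acute phase inhibitor of proteases, PLAU (2.41), the urokinase plasminogen activator, and the collagenase MMP13 (1.30) were at 2-fold among 26 proteases, serpins and matrix genes, with MMP12 the lowest at -0.33. SERPINA3 was at 0.00 untreated, 2.71 ethanol and -0.35 to 0.15 on the other 7, and PLAU was at -0.09, 2.32 and -0.41 to 0.16. Both were high on the ethanol array alone. INHBA (2.27), the activin A subunit, and EDN1 (1.62), endothelin-1, were the 2 of 27 growth factors, with FGFBP1 at -0.50, and INHBA had probe sets from -0.07 to 4.29. In the BMP and TGF-beta pathway BAMBI, a decoy receptor, was the 1 of 25 at 1.34, and in the Wnt pathway the receptor FZD7 was the 1 of 17 at 1.44, with the inhibitor DKK1 at -0.66. Complement factor B (CFB, 1.12) was the 1 of 20 antimicrobial and acute phase genes, and NOS2 was lowest at -0.32. Prostaglandin genes had 0 of 15, from TBXAS1 at -0.32 to PTGER4 at 0.78.

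Targets of glucocorticoid and cyclic AMP signalling had 3 of 19 at 2-fold, IRS2 (2.37), an adaptor of the insulin receptor, SGK1 (1.88), a kinase regulating ion channels, and PDE4B (1.15), a cyclic AMP phosphodiesterase. The list median was 0.33, 0.63 with the probe set of largest SD, and -0.02 when probe sets that can match more than 1 transcript were left out, so its direction turned with that choice. Epithelial identity moved little in either direction. Luminal, apocrine and HER2 genes had 0 of 25 at 2-fold (ELF3 0.65, TFAP2B -0.55) and a median of -0.02, which was 0.01 after quantile normalization. Nuclear estrogen receptor targets had 0 of 19 and a median of 0.00, basal and mesenchymal markers 1 of 14, the repressor SNAI1 at 1.18, and EGF family ligands and receptors 0 of 15, from GRB7 at -0.32 to EREG at 0.98.

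**Figure D3:**
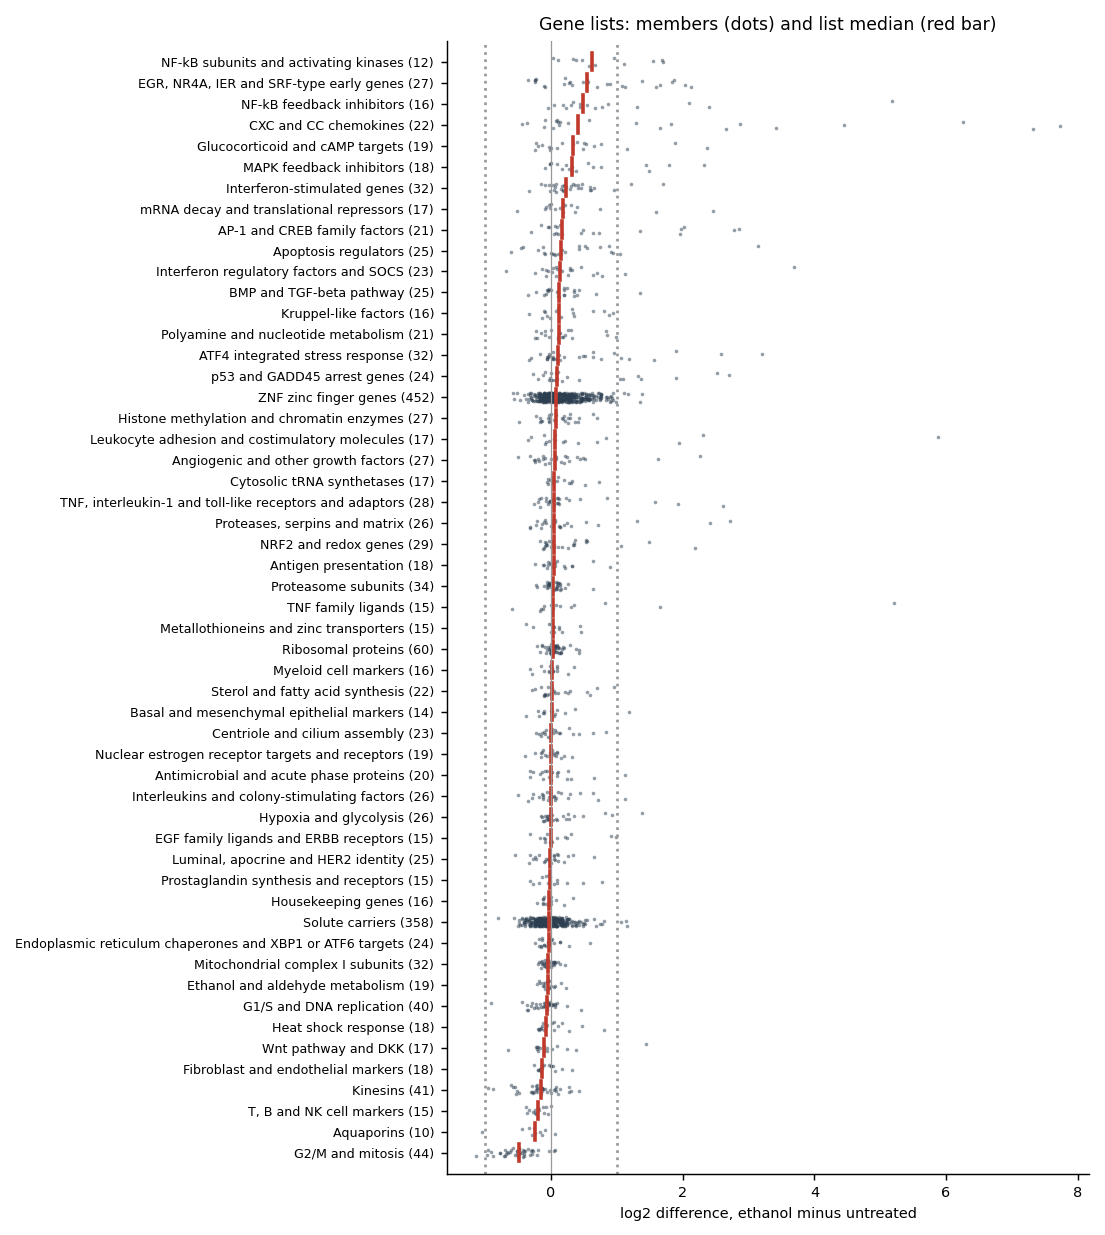
Differences between the ethanol and untreated arrays on the log2 scale (horizontal axis) for every measured member (dots) of each gene list, with the number measured in brackets and the list median as a red bar. Dotted lines mark 2-fold in either direction. The lists with the highest medians are the NF-kB subunits (0.62), the EGR, NR4A and IER genes (0.54) and the NF-kB inhibitors (0.49), and the lowest is G2/M and mitosis (-0.49).

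Some lists share members. In all, 80 of the 172 higher genes belonged to a list, not counting the zinc finger and solute carrier families, and 92 to none. The highest of the unlisted was RASD1, a small G protein gene induced by dexamethasone, with -0.10 on the untreated, 3.24 on the ethanol, -0.06 on the BSA, 0.47 on the estradiol, -0.06 on the E2-BSA, 0.00 on the G15, 0.50 on the E2-BSA with ICI and 0.00 on the E2-BSA with G15 array. The ethanol array was 2.75 above the next. FBLN5, an elastic fibre protein, followed at 2.88, and its other 7 arrays lay between -0.30 and 0.28. Others among the 60 largest differences were the non-coding LINC00622 (2.35), IGFL1 (2.14), C2CD4A (2.06), TCIM (1.98), NEURL3 (1.97), the lipid phosphatase PLPP3 (1.89), GCNA (1.88), the decoy receptor TNFRSF11B (1.88), STYK1 (1.79), AFTPH-DT (1.72), STX11 (1.72) and the transcription factor CEBPD (1.70). C2CD4A resembled EGR1 in that the E2-BSA with ICI and estradiol arrays were next, at 0.79 and 0.57 against 1.91 on the ethanol array.

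By annotation 155 of the 172 were protein coding, 14 were long non-coding RNA genes and 3 were transcribed pseudogenes. Lengths were taken for protein-coding genes only. Their median from start to end was 15.8 kb for the 155 higher ones and 28.4 kb over all 16521 measured. For the protein-coding genes among the 143 at least 1.5-fold lower it was 17.9 kb. Among the measured genes 7 pairs of the higher genes were immediate neighbours, and in 2 of the pairs (PLAU with C10orf55, and WAKMAR2 with TNFAIP3) the genes overlap. The other pairs were SNAI1 with CEBPB, CXCL10 with CXCL11, C4orf54 with DAPP1, SLC7A11 with NOCT, and PARAIL with RIPK2.

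KRAB-type and other zinc finger genes named ZNF formed a broad, shallow shift. Of 452 measured, 294 were above 0, against 42.1% of all genes. On the ethanol array 190 had their highest value of the 8, against 19.4% of all genes. The median was 0.08, and also 0.08 after quantile normalization (other 6 arrays -0.00 to 0.03). At 1.5-fold 40 were higher and 0 lower, where 2.98% of all genes were higher and 0.723% lower. At 2-fold were 4 of the 452, where 0.87% of all genes were, ZNF670 (1.38), ZNF256 (1.35), ZNF383 (1.17) and ZNF217 (1.10), and ZNF175 was lowest at -0.58. These genes encode DNA-binding repressors, many of them of transposable elements. Of 27 chromatin enzymes 0 were at 2-fold (SIRT1 0.70, TET1 -0.50), with a median of 0.08.

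Among the 53 gene lists, G2/M and mitosis had the lowest median. Of 44 G2/M genes 42 were below 0, against 56% of all genes. On the ethanol array 38 had their lowest value of the 8, against 26.3% of all genes. At least 1.5-fold lower were 15 of the 44 and 143 of all genes (0.723%), so most of the 143 were not in this list. The median was -0.49, and -0.44 after quantile normalization, and the other 6 arrays gave medians from -0.18 to -0.04. All 6 of those medians were below 0 too, so the untreated array itself lay on the high side of the series for this list, and against the BSA array the median was -0.35.

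Only PSRC1, which encodes a microtubule-binding protein of the spindle, was at 2-fold, with 0.11 on the untreated and -1.03 on the ethanol array and -0.10 to 0.13 on the other 7. ARHGAP11A (-0.98), a regulator of cytokinesis, the kinesins KIF23 (-0.96) and KIF20A (-0.88) of the cleavage furrow and the checkpoint kinase BUB1B (-0.92) followed. For ARHGAP11A the untreated array was the highest of the 8 at 0.37, and the ethanol array was at -0.61 against a lowest of -0.21 among the others. KIF23 was at -0.02 on the untreated, -0.98 on the ethanol, 0.07 on the BSA, -0.07 on the estradiol, 0.08 on the E2-BSA, 0.07 on the G15, -0.03 on the E2-BSA with ICI and 0.04 on the E2-BSA with G15 array. Its 7 other values lay close together and the ethanol value lay 0.91 below the lowest of them, short of the gap of 1 unit. The kinase PLK1 was at -0.71, CCNB1, a cyclin of mitotic entry, at -0.48 and its kinase CDK1 at -0.41, all named after their values were seen. The order within the list depended on the comparator: against the BSA array PLK1 was at -1.13, KIF23 at -1.05, BUB1B at -0.80, KIF20A at -0.60 and ARHGAP11A at -0.40. The 2 members above 0 were CDC25B (0.05) and SGO1 (0.06).

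The promoters of KIF23 and PLK1 are shown for the cell cycle homology region, TTTGAA, in capitals, through which the DREAM complex represses mitotic genes outside G2. They are from the same RefSeq table.
KIF23, chr15:69414219-69414348, plus strand: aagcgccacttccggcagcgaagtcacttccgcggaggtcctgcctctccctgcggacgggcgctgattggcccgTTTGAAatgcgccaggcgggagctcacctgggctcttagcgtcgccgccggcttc
PLK1, chr16:23678759-23678888, plus strand: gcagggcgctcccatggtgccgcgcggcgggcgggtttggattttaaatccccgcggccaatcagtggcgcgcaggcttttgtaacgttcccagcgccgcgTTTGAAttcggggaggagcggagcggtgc
The pattern was in 21 of the 32 G2/M promoters with a single start (65.6%), in 30% of the 100 promoters of genes at least 1.5-fold lower, in 13.7% of the higher promoters and in 12% of all. The NF-kB consensus was in 0 of these 32.

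Other cell cycle lists were nearer 0. G1/S and replication genes had 31 of 40 below 0 and a median of -0.06, with E2F8, an E2F repressor, at -0.92 and RRM2, a subunit of ribonucleotide reductase named after its value was seen, at -0.45, and GINS3 highest at 0.45. That median lay within those of the other 6 arrays (-0.14 to -0.00) and was -0.00 against the BSA array, so it was not particular to the ethanol array. Kinesins, a family that includes mitotic and transport motors, share members with the G2/M list. Of 41 measured 30 were below 0, against 56% of all genes, with a median of -0.16. Centriole and cilium genes had a median of 0.00 and 0 of 23 at 2-fold.

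**Figure D4:**
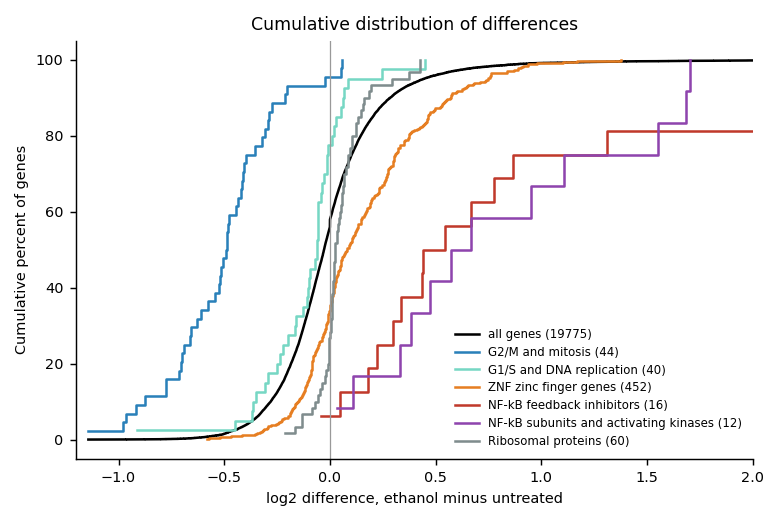
Cumulative percent of genes (vertical axis) against the difference between the ethanol and untreated arrays on the log2 scale (horizontal axis), for all genes and for selected lists. The G2/M curve lies to the left of that of all genes along most of its length, with 42 of 44 members below 0, and the NF-kB curves lie to the right, with all 12 subunits and kinases above 0.

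The other 2 genes at 2-fold lower were LOC441179 (-1.09) and AQP11 (-1.05), an intracellular aquaporin. AQP11 was at 0.00 on the untreated array, -1.05 on the ethanol array and -0.16 to 0.14 on the other 7. Of the 10 aquaporins measured 9 were below 0, against 56% of all genes, with a median of -0.25. AQP11 was the only 1 at 1.5-fold lower. A lean below 0 was not particular to aquaporins, as 14 of 15 T, B and NK cell genes were below 0 too (median -0.20). Further genes with their lowest value on the ethanol array were TRIL (-0.97), a co-receptor of toll-like receptors, CCNF (-0.96), PRR15 (-0.90), PRR15L (-0.89), HJURP (-0.88), CKAP2L (-0.84), NDC80 (-0.80), FOXO6 (-0.83), CALHM1 (-0.83) and OR1F2P (-0.80). CCNF, HJURP, CKAP2L and NDC80 also act in the cell cycle and were not in the mitosis list. TXNIP, a thioredoxin inhibitor that restrains glucose uptake, was at 0.10 on the untreated and -0.75 on the ethanol array (other 7 arrays -0.17 to 0.16). SLC40A1, the iron exporter ferroportin, was at 0.08 and -0.73 (other 7 -0.12 to 0.11), and was the lowest of 358 solute carriers, among which 3 were at 2-fold higher, SLC25A25 (1.16), SLC2A6 (1.14) and SLC7A11.

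Reference families stayed near 0. Ribosomal protein genes had 0 of 60 at 2-fold and a median of 0.02, proteasome subunits 0 of 34 and 0.03 (PSMB9, a subunit of the immunoproteasome, was highest at 0.64), and housekeeping genes 0 of 16 and -0.03, from GUSB at -0.22 to TBP at 0.33. Complex I subunits had 18 of 32 lowest of the 8 on the ethanol array, against 26.3% of all genes. Their median was -0.05, which was 0.01 after quantile normalization.

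The mean over probe sets hides differences within a gene. Of the 172 higher genes 101 had 1 probe set and 71 several. In 36 of the 71 every probe set was at 2-fold, in 59 every one was above 0, and in 12 at least 1 was at or below 0. In 13 the highest and the lowest probe set were at least 2 log2 units apart. CXCL2, a neutrophil chemokine, had probe sets from -0.01 to 4.97, ATF3 from -0.05 to 3.57 and NFKBIA from 0.00 to 2.62. A further 13 genes had a probe set at least 4-fold higher and a mean under 2-fold, among them NCOA7 (highest probe set 2.69), PHLDA1 (2.69), the interleukin-1 receptor kinase IRAK2 (2.39), PRDM1 (2.34), NFKBID (2.23), GATA6 (2.18) and NFKB2 (2.04), all chosen after their values were seen. NFKB2, the gene of the p100 subunit, had a mean of 0.95. With any probe set counted, 347 genes were at 2-fold higher, and with every probe set required, 137.

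**Figure D5:**
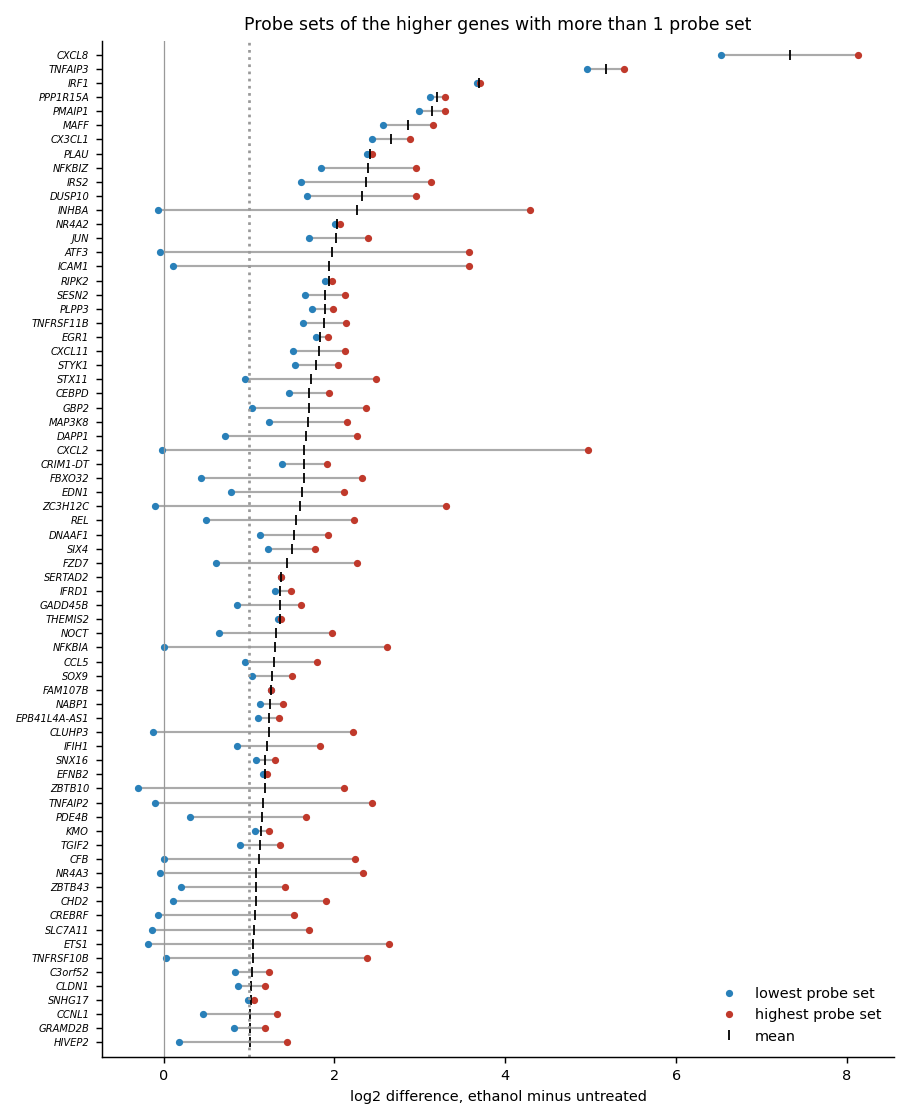
Differences between the ethanol and untreated arrays on the log2 scale (horizontal axis) for the lowest probe set, the highest probe set and the mean of each of the 71 higher genes with more than 1 probe set. In 59 of the 71 the lowest probe set lies above 0, and the grey lines show the genes in which probe sets disagree, such as CXCL2 from -0.01 to 4.97.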

How the data were processed

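Transcripts were measured with 8 expression arrays of 54675 probe sets, 1 per condition, and 2 of them form the comparison. RNA was purified on spin columns and biotin-labelled, per the labels' protocols. Values were deposited centred for each probe set, and were taken to be on a log2 scale. How the authors summarized and normalized probes, and the log base, is stated neither in the labels nor in the table headers.

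The 62 control probe sets were left out. The platform annotation gave 1 gene for 41091 probe sets (41037 found in current records by identifier), more than 1 for 1801, and no gene for 11721. Probe sets of a gene were averaged, with no filter on level, since level is removed. Differences were counted at 2-fold, and with 1 array a side no test was made. The counting was run on simulated data with added differences well beyond 2-fold, which does not bear on genes near that threshold. The 53 gene lists come from general knowledge, and the members and lists were chosen with earlier results of these data known. Genes were named if among the 60 largest positive differences, at 2-fold lower, among the 20 lowest that were lowest of the 8 arrays on the ethanol array, or at 2-fold, highest or lowest in a list. Some genes are not reported here. Promoters (250 bases before to 50 after the start) and gene types came from RefSeq, GRCh38.p14. For 15384 of the genes a promoter was listed, and the 11469 with 1 start were searched. Alternatives were the probe set with the largest SD or the median per gene, leaving out probe sets marked as cross-matching, quantile normalization, another comparator, other thresholds and fewer arrays. Python 3.11.15, pandas 2.3.3 and numpy 2.4.6 were used.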

Additional observations from a re-analysis of the deposited data

How the results depend on the processing

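With the probe set of largest SD for each gene, 338 genes were at 2-fold higher and 5 lower, and 210 stood above and 1 below all other arrays, against 172, 3, 126 and 0 with the mean. Quantile normalization, which by construction gives every array the same tails, left 28 higher, 16 lower and 7 above all others. Against the BSA array 215 were higher and 10 lower, and against the median of the other 7 arrays 171 and 7. Without probe sets marked as cross-matching 1 gene stood below all others. At 1.5-fold the 4 counts were 589, 143, 335 and 28, and at 4-fold 37, 0, 27 and 0. With every probe set required, a choice made after seeing the data, 137 were higher. CXCL2 turned to -0.0096 with the median over probe sets and to -0.0121 without the cross-matching ones.

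Of 115 named genes 98 were at 2-fold. Of these 98, 94 stayed at 2-fold against the BSA array, 95 against the median of the other 7, 96 with the median over probe sets, all 98 with the largest SD and 29 after quantile normalization, and 73 of 78 without cross-matching probe sets. Besides CXCL2, the genes that left 2-fold other than by quantile normalization were AQP11 (-0.89), IL20 (0.65), EGR3 (0.95) and SNAI1 (0.91) against the BSA array, CFB (0.00), NFKBIA (0.00), GADD45B (0.85) and PDE4B (0.99) without cross-matching probe sets, and TNFRSF10B (0.88) with the median over probe sets. No paired analysis was possible because each condition has 1 array. Leaving out a replicate was not possible for the same reason. The signal over background behind a value cannot be read from centred values.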

Other observations

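Probe sets with no single gene name, 13522 in all, held 136 at 2-fold higher on the ethanol array than on the untreated array and 2 lower, and 47 stood above all other 7 arrays by at least 1 log2 unit. The BSA array had 132 such probe sets at 2-fold higher than untreated, while the other 5 arrays had 4 to 39. Among named genes the BSA array had 6 at 2-fold higher. The transcripts of these probe sets are not identified here.

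Gene length among the protein-coding higher genes had quartiles of 5.54 and 43.8 kb, against 10.9 and 72.9 kb over all protein-coding genes measured. The median GC content of the promoters searched was 64.3% for the higher genes and 63.0% for all.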
